A study of Mus musculus with 4 samples.

Results

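The Creb3 family of membrane-bound transcription factors has 5 members, Creb3, Creb3l1, Creb3l2, Creb3l3 and Creb3l4. They were found by matching the Ensembl identifiers of the deposited count tables to mouse symbols, and all 5 were present among 38124 identifiers. The family was chosen by the TMM-scaled counts of Creb3l3, which had been seen to be higher under a high-fat diet (HFD) in these same libraries, so the diet values of the members are given as descriptions without a test. RNA was sequenced from GFP-sorted intestinal cells of male C57BL/6 mice aged 71 weeks. The 4 groups were GFP-high cells of HFD mice, GFP-low cells of HFD mice and the same pair of fractions from control mice, where the labels call GFP-high cells intestinal stem cells and GFP-low cells progenitors, and the control mice received the normal diet. Each group is 1 library from 200000 sorted cells pooled from 2 to 5 mice. No group has a replicate, and an effect of diet cannot be told apart from a difference between the pools. Neither the promoter behind GFP nor what the diets contained is given in the sources used here.

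These proteins are bZIP factors that are made as precursors anchored in the membrane of the endoplasmic reticulum (ER). When they travel to the Golgi, the site-1 and site-2 proteases cut them, and the freed N-terminal part enters the nucleus. Creb3l3, also called CREBH, is known in mouse liver and small intestine for lipid and fasting genes. Creb3l1 (OASIS) and Creb3l2 (BBF2H7) are known for the secretory pathway, in mouse goblet cells for Creb3l1 and in mouse cartilage for Creb3l2. Creb3 (Luman) is known from Golgi stress and Creb3l4 (AIbZIP, Tisp40) from prostate and male germ cells. Precursor cleavage is not visible in RNA counts.

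Total counts ran from 4677389 to 6207080 per library. The labels were checked with stem cell markers: all 8 were called higher in GFP-high cells (edgeR, adjusted p under 0.05), where 22.0% of tested genes were called higher. Their median log2 ratio was 2.40 for GFP-high over GFP-low. Lgr5, the receptor that marks crypt base stem cells, had 242 CPM in HFD GFP-high and 12.5 CPM in HFD GFP-low cells, and 241 CPM in control GFP-high and 12.7 CPM in control GFP-low cells. Levels are given as CPM, counts per 1e6 reads of a TMM-scaled library. Of the leukocyte markers Ptprc and Csf1r, and of the 7 stromal markers Col1a1, Col1a2, Col3a1 and Dcn, had 0 counts in all 4 libraries, while others of both lists were present. The stromal list summed to 3.90 CPM in HFD GFP-high and 16.0 CPM in HFD GFP-low cells, and to 2.53 CPM in control GFP-high and 27.0 CPM in control GFP-low cells. Most of the GFP-low sums was Vim, an intermediate filament gene, with 15.6 CPM in HFD GFP-low and 25.6 CPM in control GFP-low cells (12.05-fold lower in GFP-high, edgeR adjusted p = 6.71e-07). Markers of differentiated cells ran the other way, with 14 of 15 enterocyte and 10 of 10 goblet cell markers called lower in GFP-high cells. Of all tested genes 25.6% were called lower. In bulk RNA of this kind, fewer cells of a type and less RNA per cell cannot be told apart.

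Promoter windows, the 250 bases before an annotated transcription start, were taken from RefSeq on build GRCm38.p6 for the 4 members that had an entry. They are shown for Creb3l3, the member whose profile over the libraries stood apart, for Creb3l4, and for Fabp1, the gene whose profile was closest to that of Creb3l3. Capitals in the 3 family windows mark matches on either strand to TGACG (the half-site of the cyclic AMP response element), CCACG (the core of the unfolded protein response element), AGGTCA (a nuclear receptor half-site) or CCAAT. In the Fabp1 window they mark only the direct repeat 1, which is AGGNCA followed by any 1 base and a second AGGNCA, and which can itself hold the nuclear receptor half-site. Matches to the first and second motif on opposite strands can share bases. All 4 windows read 5′ to 3′ on the gene's own strand.
Creb3l3 first start (chr10:81092592-81092841, minus strand): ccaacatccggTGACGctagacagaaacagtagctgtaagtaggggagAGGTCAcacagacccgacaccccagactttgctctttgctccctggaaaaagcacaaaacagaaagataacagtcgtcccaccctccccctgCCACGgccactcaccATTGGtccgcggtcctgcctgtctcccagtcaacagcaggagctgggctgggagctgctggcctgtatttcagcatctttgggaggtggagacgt
Creb3l3 second start (chr10:81098873-81099122, minus strand): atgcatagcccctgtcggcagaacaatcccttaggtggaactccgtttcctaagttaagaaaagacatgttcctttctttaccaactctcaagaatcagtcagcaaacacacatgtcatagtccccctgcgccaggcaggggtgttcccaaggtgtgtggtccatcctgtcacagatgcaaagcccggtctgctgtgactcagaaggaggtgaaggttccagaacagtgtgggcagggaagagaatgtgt
Creb3l4 first start (chr3:90243513-90243762, minus strand): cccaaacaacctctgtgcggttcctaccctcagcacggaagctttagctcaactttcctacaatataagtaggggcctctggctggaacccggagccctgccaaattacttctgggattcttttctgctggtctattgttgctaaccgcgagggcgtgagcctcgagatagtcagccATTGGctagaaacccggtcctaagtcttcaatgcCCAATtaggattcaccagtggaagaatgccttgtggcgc
Fabp1 (chr6:71199629-71199878, plus strand): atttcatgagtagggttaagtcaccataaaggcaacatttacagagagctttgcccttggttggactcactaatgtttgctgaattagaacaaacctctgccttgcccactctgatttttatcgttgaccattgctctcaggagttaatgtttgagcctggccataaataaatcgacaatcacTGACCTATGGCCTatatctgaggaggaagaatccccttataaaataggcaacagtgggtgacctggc

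The first Creb3l3 start lies within the annotated gene, 6283 bases from its 5′ end, and the second lies at that end. The window before the first start held each of the 4 short motifs once, with the TGACG 239 bases and the AGGTCA 202 bases before the start. The second Creb3l3 window held none of the motifs searched. Of all 32851 windows of this length, 17.8% held TGACG, 28.3% held CCACG, 14.0% held AGGTCA, 33.8% held CCAAT and 0.338% held the direct repeat. The first Creb3l4 window held CCAAT at 73 and 39 bases before the start and none of the other motifs. The windows before the other two Creb3l4 starts, not shown, held TGACG at 1 and 2 places and CCACG once each. The Creb3 window held CCACG at 3 places, and the Creb3l2 window held TGACG once and CCAAT at 2 places. Of the family windows, AGGTCA was found in that of the first Creb3l3 start alone. The Fabp1 window held the direct repeat 67 bases before the start, on the minus strand of the gene, and neither Creb3l3 window did. No window of Slc2a2, Aldh1a1, Akp3 or Slc51a, the next closest profiles to Creb3l3, held it either. Counts per gene do not separate the starts, and a match of letters is not a measurement of binding.

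Creb3l3 lies on chromosome 10 (chr10:81084324-81098874, minus strand, GRCm38). It had 28.6 CPM in GFP-high cells under HFD (191 counts) and 2.72 CPM under control (15 counts). In GFP-low cells it had 172 CPM under HFD (850 counts) and 50.7 CPM under control (224 counts). Its level was thus higher under HFD in both fractions, and higher in GFP-low than in GFP-high cells under both diets. The HFD library stood 10.5-fold above control in GFP-high cells (exact 95% interval for the ratio of counts 6.23 to 19.2) and 3.39-fold above it in GFP-low cells (2.92 to 3.94). The interval in GFP-high cells is wide because the control library held 15 counts. Between fractions, GFP-low cells were 6.01-fold above GFP-high cells under HFD (5.13 to 7.07) and 18.7-fold above them under control (11.1 to 34.0). These intervals cover counting error only, not the spread between mice.

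Creb3l1 lies on chromosome 2 (chr2:91982328-92024502, minus strand). It had 98.1 CPM under HFD and 92.9 CPM under control in GFP-high cells. In GFP-low cells it had 216 CPM under HFD and 408 CPM under control. The diets were close in GFP-high cells (ratio of HFD over control 1.06, interval 0.940 to 1.19), and in GFP-low cells HFD was at 0.529 of control (0.490 to 0.571).

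Creb3l4 (chr3:90237500-90243512, minus strand) had almost the same shape over the libraries. It had 16.8 CPM under HFD and 16.7 CPM under control in GFP-high cells, and 39.9 CPM under HFD and 75.7 CPM under control in GFP-low cells. The HFD over control ratio was 1.01 in GFP-high cells (0.758 to 1.34) and 0.527 in GFP-low cells (0.439 to 0.630).

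Creb3 (chr4:43562332-43567060, plus strand) had 17.8 CPM under HFD and 17.4 CPM under control in GFP-high cells, and 37.8 CPM under HFD and 42.4 CPM under control in GFP-low cells. Its HFD over control ratio was 1.03 in GFP-high cells (0.777 to 1.36) and 0.893 in GFP-low cells (0.725 to 1.10), and both intervals include equality. Its exons share 360 bases with Tln1 and 133 bases with Gba2 on the opposite strand. No source used here gives the strand setting of the counting, so its counts are uncertain to that extent. Tln1 had 165 CPM in HFD GFP-high and 159 CPM in HFD GFP-low cells, and 202 CPM in control GFP-high and 211 CPM in control GFP-low cells.

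Creb3l2 (chr6:37327255-37442146, minus strand) was slightly lower under HFD in both fractions. It had 13.3 CPM under HFD and 17.6 CPM under control in GFP-high cells (ratio 0.759, interval 0.563 to 1.02), and 37.0 CPM under HFD and 45.8 CPM under control in GFP-low cells (ratio 0.809, interval 0.659 to 0.993).

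**Figure D1:**
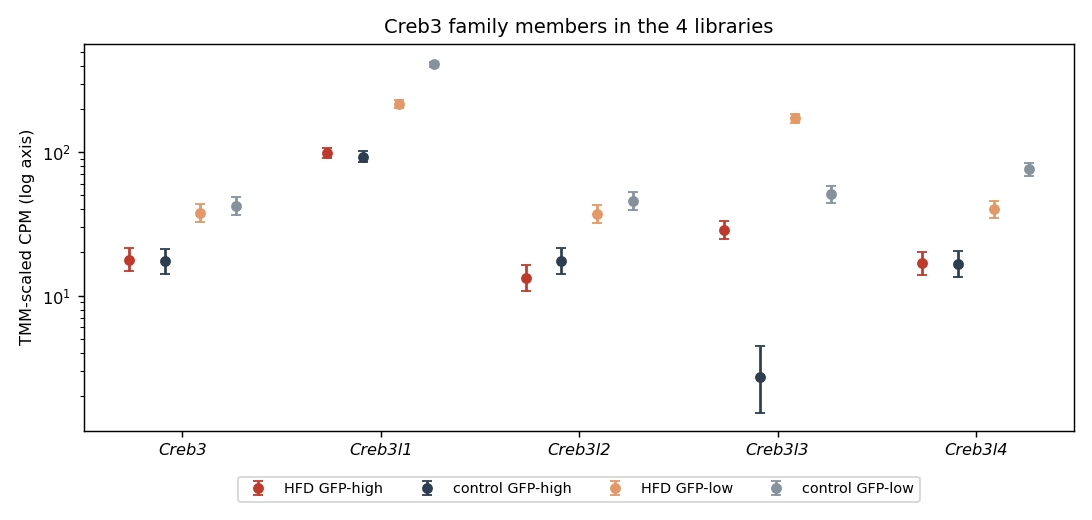
TMM-scaled CPM (log axis) of the 5 members in the 4 libraries, with HFD left of control in each fraction. Points are single libraries and bars are exact 95% Poisson intervals. The lowest point is Creb3l3 in control GFP-high cells at 2.72 CPM, against 28.6 CPM in HFD GFP-high cells.

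All 5 members were lower in GFP-high than in GFP-low cells, a contrast that was not used to choose them. Fitted over all 4 libraries with edgeR's quasi-likelihood test and Benjamini-Hochberg adjustment over 10694 tested genes, 4 of the 5 were called lower in GFP-high, where 25.6% of tested genes were called lower. Creb3l3 fell by 2.95 ± 0.36 on the log2 scale (SE; edgeR adjusted p = 0.00731), which is 7.75-fold. Creb3l4 fell by 1.73 ± 0.21 (edgeR adjusted p = 8.73e-05), or 3.31-fold. Creb3l2 fell by 1.43 ± 0.15 (edgeR adjusted p = 1.72e-06), or 2.69-fold. Creb3 fell by 1.18 ± 0.15 (edgeR adjusted p = 1.11e-05), or 2.27-fold.

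Creb3l1 had a log2 ratio of -1.64 ± 0.33 for GFP-high over GFP-low and missed the threshold (edgeR adjusted p = 0.0506). DESeq2's Wald test called it (adjusted p = 1.47e-10), as it did the other 4, where DESeq2 called 13.9% of tested genes lower. The edgeR fit without the robust option also called it (adjusted p = 5.82e-07). Creb3l1 was 2.20-fold higher in GFP-low than in GFP-high cells under HFD and 4.39-fold higher under control. Creb3l4, which was called, had a like contrast, 2.38-fold under HFD and 4.54-fold under control, and that of Creb3l3, also called, differed more between the diets. Creb3 (2.12-fold under HFD, 2.44-fold under control) and Creb3l2 (2.78-fold under HFD, 2.61-fold under control) differed less between the diets. All 5 were at least 2-fold lower in GFP-high than in GFP-low cells within each diet, where 9.05% of genes with at least 5 CPM in the higher library were at least 2-fold lower under HFD and 9.30% under control. Without the diet term in the model the Creb3l3 difference was no longer called (log2 ratio -2.80, edgeR adjusted p = 0.293).

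**Figure D2:**
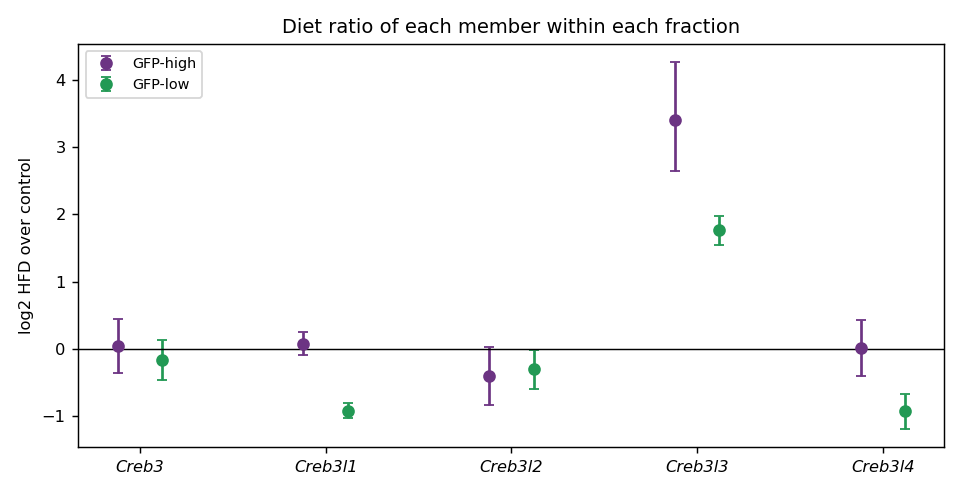
Log2 ratio of HFD over control for each member, in GFP-high cells and in GFP-low cells, with exact 95% counting intervals from 1 library a group. Creb3l3 lies above 0 in both fractions, and Creb3l1 and Creb3l4 lie below 0 in GFP-low cells.

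Of the 5 members, Creb3l3 was the one past a 2-fold difference between the diets, higher under HFD in both fractions, and no member was 2-fold lower. Of the genes with at least 5 CPM in the higher library, 0.810% were at least 2-fold higher under HFD in GFP-high cells and 1.58% in GFP-low cells. At least 2-fold lower under HFD were 1.51% in GFP-high and 2.63% in GFP-low cells. Since Creb3l3 was chosen for this difference, the count is a description. On the log2 scale, the diet ratio in GFP-high cells exceeded that in GFP-low cells by 1.64 for Creb3l3, 0.997 for Creb3l1, 0.936 for Creb3l4 and 0.20 for Creb3. For Creb3l2 the difference was -0.09. None of these differences was tested.

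Levels were compared between members per kilobase of annotated exon. Creb3l1 led in all 4 libraries, at 37.7 CPM per kb in HFD GFP-high and 82.9 in HFD GFP-low cells, and 35.7 in control GFP-high and 157 in control GFP-low cells. Creb3l2, with the longest exons, was at 1.83 CPM per kb in HFD GFP-high and 5.08 in HFD GFP-low cells, and 2.41 in control GFP-high and 6.28 in control GFP-low cells. Creb3l3 moved through the order. It came second in HFD GFP-low cells with 57.0, where no neighbouring intervals overlapped, and last in control GFP-high cells with 0.900. In HFD GFP-high cells Creb3l4 (9.99), Creb3l3 (9.49) and Creb3 (7.52) followed Creb3l1 with overlapping intervals between neighbours. In control GFP-low cells Creb3l4 (45.1) came before Creb3 (17.9) and Creb3l3 (16.8), whose intervals overlapped. In control GFP-high cells Creb3l4 (9.92) and Creb3 (7.33) had overlapping intervals.

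The family summed to 66.5 CPM per kb in HFD GFP-high and 185 in HFD GFP-low cells, and to 56.2 in control GFP-high and 243 in control GFP-low cells. Creb3l3 supplied 14.3% of the family sum in HFD GFP-high against 1.60% in control GFP-high cells, and 30.9% in HFD GFP-low against 6.93% in control GFP-low cells. Creb3l1 supplied 56.7% in HFD GFP-high against 63.4% in control GFP-high cells, and 44.9% in HFD GFP-low against 64.6% in control GFP-low cells. Set among 10615 tested genes with a known length by CPM per kb, Creb3l3 stood above 59.1% of them in HFD GFP-high and 94.0% in HFD GFP-low cells, and above 4.33% in control GFP-high and 75.2% in control GFP-low cells. Creb3l1 stood above 91.9% in HFD GFP-high and 96.2% in HFD GFP-low cells, and above 91.8% in control GFP-high and 98.4% in control GFP-low cells.

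**Figure D3:**
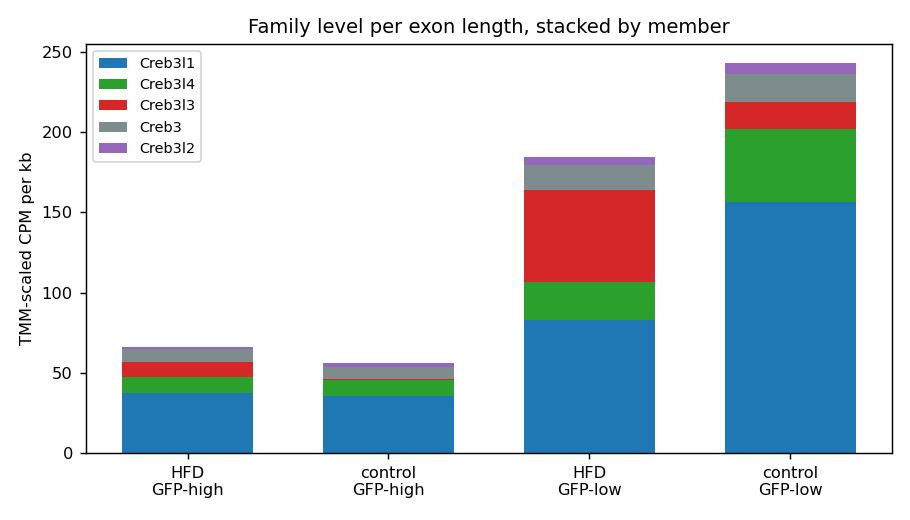
Stacked bars of the 5 members' TMM-scaled CPM per kb of exon in each library, 1 library a bar. The Creb3l3 segment makes up 30.9% of the bar of HFD GFP-low cells, against 6.93% of that of control GFP-low cells.

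The genes with the most similar profiles over the 4 libraries were found among 9914 candidates by Euclidean distance between log2(CPM + 0.5) profiles, each centred on its own mean. Creb3l3 lay closest to Fabp1, the liver-type fatty acid binding protein of enterocytes, at a distance of 0.88. Next came Slc2a2 (1.30), the glucose transporter GLUT2, Aldh1a1 (1.35), a retinal dehydrogenase, Akp3 (1.36), an intestinal alkaline phosphatase, and Slc51a (1.47), a subunit of the basolateral bile acid transporter. Slc2a2 had 1 count in control GFP-high and 10 counts in HFD GFP-high cells, so the added 0.5 CPM weighs on its profile there. Fabp1 had 113 CPM in HFD GFP-high against 8.69 CPM in control GFP-high cells, and 852 CPM in HFD GFP-low against 113 CPM in control GFP-low cells.

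Creb3l1 and Creb3l4 lay 0.074 apart, and each was the second closest gene to the other. Around them were Tnfaip8, Avil, the actin-binding protein advillin, and Txndc5, a protein disulfide isomerase of the ER. Gcnt3, a glycosyltransferase that branches mucin O-glycans, lay 0.096 from Creb3l4, and Rassf6 lay 0.15 from Creb3l1. The genes nearest to Creb3 were Mlx (0.045), a bHLH partner of glucose-sensing factors, Erp44 (0.053), a chaperone of the early secretory pathway, Igsf5 (0.056), Adcy9 (0.072), an adenylyl cyclase, and Pmm2 (0.079), an enzyme of N-glycan precursor synthesis. The genes nearest to Creb3l2 were Slc9a3r2 (0.12), Manf (0.13), a secreted factor induced by ER stress, Insl6 (0.14), Smim6 (0.15) and Wdr44 (0.16). Creb3 and Creb3l2 lay 0.39 apart, while Creb3l3 lay 3.33 to 3.46 from the other members. Each profile has 4 points, so the distances are descriptions and carry no test.

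**Figure D4:**
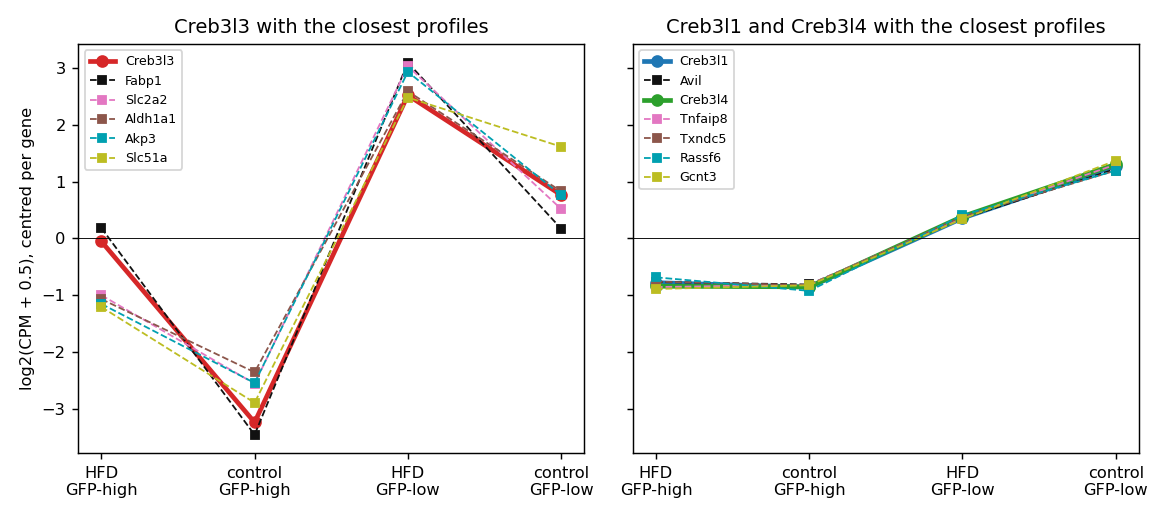
Centred log2(CPM + 0.5) profiles of Creb3l3 (left) and of Creb3l1 and Creb3l4 (right), drawn solid, with their 5 closest genes each, drawn dashed, over the 4 libraries. Lines join single libraries for reading only. Fabp1 follows Creb3l3 at a distance of 0.88, and Creb3l1 and Creb3l4 overlie each other at 0.074.

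Markers of differentiated cell types moved with these patterns. Of 15 enterocyte markers, 8 were called higher under HFD (edgeR), where 2.96% of tested genes were called higher, and none was called lower, with a median diet log2 ratio of 0.81. Their summed level was 1882 CPM in HFD GFP-high against 1511 CPM in control GFP-high cells, and 9673 CPM in HFD GFP-low against 5086 CPM in control GFP-low cells. None of the 15 was at 0 in any library. DESeq2 called 6 of the 15 higher, where it called 0.710% of tested genes higher. Within GFP-high cells 5 of the 15 were at least 2-fold higher under HFD, against 0.810% of genes, and 3 had a lower level. Within GFP-low cells 7 were at least 2-fold higher, against 1.58% of genes, and 2 had a lower level. Krt20 and Anpep had negative fitted diet log2 ratios (-0.39 and -0.28) and were not called (edgeR adjusted p = 0.120 and 0.150). Alpi, the intestinal alkaline phosphatase, had 37.3 CPM in HFD GFP-high against 6.52 CPM in control GFP-high cells, and 859 CPM in HFD GFP-low against 245 CPM in control GFP-low cells. Their part in the Creb3l3 difference was not tested.

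Goblet cell markers were lower under HFD in the GFP-low libraries, where Creb3l1 and Creb3l4 were also lower. All 10 had a lower level in HFD GFP-low than in control GFP-low cells, 8 of them by at least 2-fold, against 2.63% of genes. Their median log2 ratio was -1.19, against 0.0032 for all tested genes. In GFP-high cells that median was -0.15, against 0.02 for all tested genes. The summed level of the list was 3247 CPM in HFD GFP-high against 3683 CPM in control GFP-high cells, and 18087 CPM in HFD GFP-low against 41385 CPM in control GFP-low cells, with no marker at 0. Muc2, the main gel-forming mucin, had 982 CPM in HFD GFP-low against 2701 CPM in control GFP-low cells. Spdef, a goblet cell transcription factor, had 67.6 CPM in HFD GFP-low against 146 CPM in control GFP-low cells. Over both fractions 1 of the 10, Ccl6, was called lower under HFD (edgeR adjusted p = 0.00183), where 3.50% of tested genes were called lower. Other lists were lower there too. In GFP-low cells 7 of 8 Paneth and 7 of 8 enteroendocrine markers had a lower level under HFD, 4 of each by at least 2-fold. Their median log2 ratios were -1.06 and -1.02, against -0.70 and 0.45 in GFP-high cells. Of 24 tested unfolded protein response genes 21 were lower in HFD GFP-low cells, with a median of -0.41, against -0.10 in GFP-high cells. The part of goblet cell content, or of these other lists, in the Creb3l1 and Creb3l4 values was not tested.

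**Figure D5:**
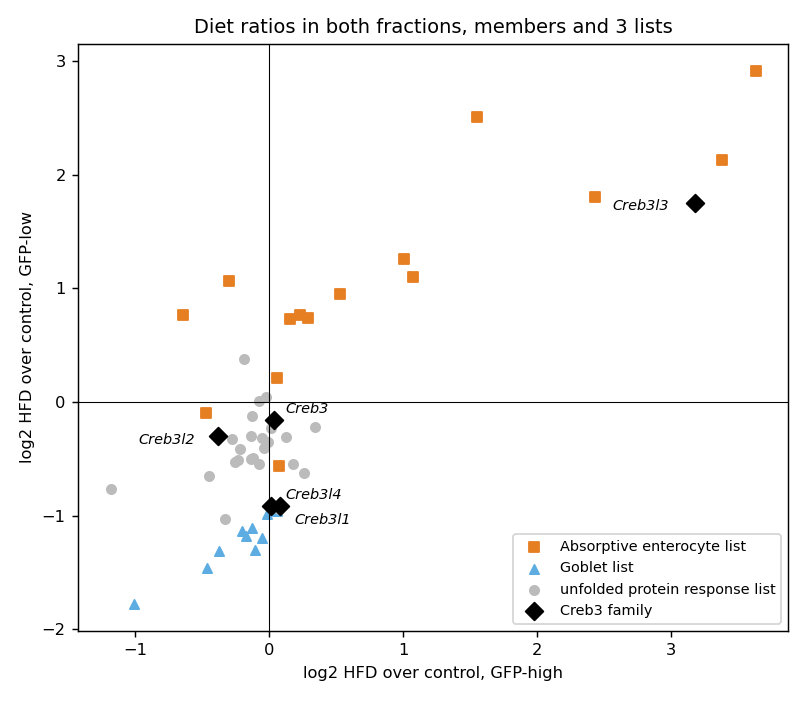
Log2 ratio of HFD over control, from CPM with 0.5 added, in GFP-high cells (x axis) and GFP-low cells (y axis) for the 5 members and the tested genes of the enterocyte, goblet and unfolded protein response lists. Creb3l3 (3.18, 1.75) lies among the highest enterocyte markers, and Creb3l1 (0.08, -0.92) and Creb3l4 (0.01, -0.92) lie beside the goblet markers.

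Of 8 Paneth cell markers 6 were called lower under HFD (edgeR), where 3.50% of tested genes were called lower, and their sum was 456 CPM in HFD GFP-high against 793 CPM in control GFP-high cells, and 1124 CPM in HFD GFP-low against 2315 CPM in control GFP-low cells. Of 8 enteroendocrine markers 1, Cck, was called lower under HFD by edgeR, and 0 by DESeq2. Their sum was 88.4 CPM in HFD GFP-high against 66.1 CPM in control GFP-high cells, and 474 CPM in HFD GFP-low against 1065 CPM in control GFP-low cells. The 9 leukocyte markers summed to 193 CPM in HFD GFP-high against 1353 CPM in control GFP-high cells, and to 104 CPM in HFD GFP-low against 982 CPM in control GFP-low cells. Most of that sum was Cd74, the MHC class II chaperone, with 183 CPM in HFD GFP-high against 1341 CPM in control GFP-high cells, and 81.1 CPM in HFD GFP-low against 947 CPM in control GFP-low cells. Itgam, an integrin of myeloid cells, had 10.0 CPM in HFD GFP-high against 10.9 CPM in control GFP-high cells, and 20.4 CPM in HFD GFP-low against 29.7 CPM in control GFP-low cells. In each library 4 or 5 of the 9 were at 0. Their part in the members' values was not tested.

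Genes of the 2 proteases, of trafficking and of ER-associated degradation, listed together as release machinery, did not pass the diet test. Of 11 genes of the release machinery, 0 were called in either direction by edgeR (1 at an unadjusted p under 0.05) and 0 by DESeq2, with a median diet log2 ratio of 0.02 against 0.01 for all tested genes. Mbtps1, the site-1 protease, had 149 CPM in HFD GFP-high and 149 CPM in control GFP-high cells, and 144 CPM in HFD GFP-low and 142 CPM in control GFP-low cells. Mbtps2, the site-2 protease, had 23.1 CPM in HFD GFP-high and 17.0 CPM in control GFP-high cells, and 15.6 CPM in HFD GFP-low and 20.8 CPM in control GFP-low cells. Between fractions 6 of the 11 were called lower in GFP-high and 0 higher (edgeR), where 25.6% of tested genes were called lower. The median log2 ratio was -0.51, against -0.00068 for all tested genes. Neither protease was called, with a log2 ratio of 0.06 for Mbtps1 (edgeR adjusted p = 0.667) and 0.15 for Mbtps2 (edgeR adjusted p = 0.584). Scap was not called either (0.07, edgeR adjusted p = 0.601). DESeq2 called 5 of the 11 lower, where it called 13.9% of tested genes lower. Syvn1, the ligase of ER-associated degradation, was among them (1.87-fold lower in GFP-high, edgeR adjusted p = 4.39e-06).

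Other transcription factors held in membranes were likewise not called between the diets, 0 of 6 with edgeR or DESeq2 and also 0 at an unadjusted p under 0.05 in both, with a median log2 ratio of -0.03. Between fractions 3 of the 6 were called lower in GFP-high and 1, Myrf, higher, where 25.6% of tested genes were called lower and 22.0% higher. DESeq2 called 2 of the 6 lower and did not call Myrf. Atf6, the ER stress sensor that the same proteases release, had 56.9 CPM in HFD GFP-high and 106 CPM in HFD GFP-low cells, and 57.4 CPM in control GFP-high and 118 CPM in control GFP-low cells (1.96-fold lower in GFP-high, edgeR adjusted p = 3.1e-06). Of 13 tested bZIP genes of the CREB and ATF group and their coactivators, 0 were called between the diets by edgeR (4 at an unadjusted p under 0.05) or DESeq2. Their median fraction log2 ratio was 0.25, with 4 called higher in GFP-high and 1, Atf5, lower by edgeR and 0 called by DESeq2 (1 at an unadjusted p under 0.05).

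Lipid and acute phase genes that the literature ties to Creb3l3 were in part higher under HFD. Of 25 listed genes 16 were tested, 6 were called higher and 0 lower (edgeR), where 2.96% of tested genes were called higher, with a median diet log2 ratio of 0.40. DESeq2 called 5 higher, where it called 0.710% of tested genes higher. The list shares Apoa1, Apoa4 and Fabp1 with the enterocyte markers. Fabp1 rose 8.99-fold under HFD (log2 3.17 ± 0.16 SE, edgeR adjusted p = 3.38e-06). Angptl4, an inhibitor of lipoprotein lipase, had 20.8 CPM in HFD GFP-high against 7.78 CPM in control GFP-high cells, and 18.6 CPM in HFD GFP-low against 4.76 CPM in control GFP-low cells (3.12-fold, edgeR adjusted p = 0.000474). Apoa4, an apolipoprotein of chylomicrons, had 27.1 CPM in HFD GFP-high against 18.6 CPM in control GFP-high cells, and 174 CPM in HFD GFP-low against 89.7 CPM in control GFP-low cells (1.75-fold, edgeR adjusted p = 0.000962, DESeq2 adjusted p = 0.0678). Npc1l1, the cholesterol uptake transporter, rose 1.58-fold (edgeR adjusted p = 0.00127).

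The remaining called genes of that list, named after their values were seen, were Cpt1a (1.57-fold, edgeR adjusted p = 0.000468), the carnitine transferase of mitochondrial fatty acid entry, and Acadm (1.41-fold, edgeR adjusted p = 0.0081), a fatty acid dehydrogenase. Apoc2, an activator of lipoprotein lipase, had a diet log2 ratio of 0.30 ± 0.30 (SE, edgeR adjusted p = 0.618). The known liver targets Fgf21, Hamp and Apcs had 0 counts in all 4 libraries, which allows up to 0.449 to 0.680 CPM from a limit of 3 counts per library. Cidec, a lipid droplet gene, was too low to be tested, with 13 counts in HFD GFP-high and 41 counts in HFD GFP-low cells, and 10 counts in control GFP-high and 12 counts in control GFP-low cells.

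Among 15 nuclear receptors and cofactors of lipid and enterocyte genes, listed beside Creb3l3, 2 were called higher under HFD and 0 lower (edgeR), where 2.96% of tested genes were called higher, with a median log2 ratio of 0.17. DESeq2 called 0 of them (2 at an unadjusted p under 0.05). Ppargc1a, a coactivator of mitochondrial and fasting genes, had 20.1 CPM in HFD GFP-high against 13.6 CPM in control GFP-high cells, and 56.5 CPM in HFD GFP-low against 23.1 CPM in control GFP-low cells (1.97-fold, edgeR adjusted p = 0.00492). Hnf4g, an enterocyte nuclear receptor, rose 1.48-fold (edgeR adjusted p = 0.00391). Ppara, the fatty acid receptor that partners Creb3l3 in mouse liver, had a log2 ratio of 0.46 ± 0.14 (SE) and was not called (edgeR adjusted p = 0.0689). Hnf4a had a diet log2 ratio of -0.03 ± 0.10 (SE, edgeR adjusted p = 0.908).

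Genes of transport between ER and Golgi, tied to Creb3, Creb3l1 and Creb3l2, followed the fractions. Of 25 genes 24 were called lower in GFP-high cells and 0 higher (edgeR), where 25.6% of tested genes were called lower, with a median log2 ratio of -0.79, and DESeq2 called 23 lower. Sec24d, a cargo adaptor of the COPII coat, had 20.2 CPM in HFD GFP-high and 128 CPM in HFD GFP-low cells, and 19.9 CPM in control GFP-high and 142 CPM in control GFP-low cells (6.71-fold lower in GFP-high, edgeR adjusted p = 1.06e-10). Sec23a, the COPII component known as a Creb3l2 target in mouse cartilage, was 3.30-fold lower in GFP-high (edgeR adjusted p = 9.72e-09). Arf4, a Golgi GTPase tied to Creb3 in human cells, was 1.90-fold lower (edgeR adjusted p = 3.13e-05). Kdelr3, a receptor that retrieves ER proteins, was 8.38-fold lower (edgeR adjusted p = 1.33e-05). Goblet markers moved the same way, with all 10 called lower in GFP-high cells and a median log2 ratio of -2.79. So did 14 of 15 enterocyte markers (median -3.15), 7 of 8 Paneth (-1.31) and 6 of 8 enteroendocrine markers (-3.47), with 0 called higher. The part of these cell types was not tested. Between diets 1 of the 25, Sec23a, was called, 1.33-fold higher under HFD (edgeR adjusted p = 0.0436), and DESeq2 did not call it (adjusted p = 0.941).

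Unfolded protein response genes were also lower in GFP-high cells, 21 of 24 tested, with 0 higher and a median log2 ratio of -0.999 (edgeR), where 25.6% of tested genes were called lower. Hspa5, the main ER chaperone, was 2.25-fold lower in GFP-high cells (edgeR adjusted p = 1.19e-07), and Xbp1, the factor spliced by the ER stress sensor Ern1, was 2.26-fold lower (edgeR adjusted p = 1.24e-07). Between diets the list had a median log2 ratio of -0.23. By edgeR 3 genes were called lower under HFD and 0 higher, where 3.50% of tested genes were called lower. In either direction, 11 of the 24 had an edgeR unadjusted p under 0.05. DESeq2 called 0 (2 at an unadjusted p under 0.05). Herpud1, an ER-associated degradation factor, had 91.7 CPM in HFD GFP-high against 125 CPM in control GFP-high cells, and 114 CPM in HFD GFP-low against 180 CPM in control GFP-low cells (1.47-fold lower, edgeR adjusted p = 0.00274). Sdf2l1, an ER chaperone component, was 1.67-fold lower (edgeR adjusted p = 0.0221), and Edem1, named after its values were seen, was 1.31-fold lower (edgeR adjusted p = 0.0494).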

How the data were processed

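Poly(A) RNA of 4 libraries was sequenced from strand-specific dUTP libraries, per the labels' protocols. What the authors deposited are raw read counts for each gene. Per the submitters' processing notes, cutadapt, TopHat 1.4.1, HTSeq and the builds GRCm38 and mm10 were used. The sources used here give neither annotation release nor strand setting. Of 38124 identifiers, 36345 matched a symbol. Positions and exon lengths came from GENCODE M21 on GRCm38, and promoter sequences from RefSeq.

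Library sizes were TMM-scaled with edgeR 4.0.16 in R 4.3.3. Genes reaching 20 counts in 2 or more libraries (10694) were tested two-sided with edgeR's robust quasi-likelihood test, in an additive model of diet and fraction with 1 residual degree of freedom, at an adjusted p of 0.05. DESeq2 1.42.0 was an alternative, with other scalings, filters and models. In this model the 1 residual degree of freedom is each gene's departure from additive diet and fraction effects. P-values and SEs rest on that departure, moderated over genes, and not on a spread between mice or repeated libraries. Diet p-values are too small if GFP-high and GFP-low cells were sorted from shared mice, on which the labels are silent. Diet ratios within a fraction compare 1 library each, counted as 2-fold on log2(CPM + 0.5) with at least 5 CPM in the higher library, a scale that understates changes of low genes. Intervals and limits cover counting error only.

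The members and lists were chosen with earlier results of these data known. Named genes were the 3 highest and 3 lowest diet ratios of each list, genes fixed by name, and the 5 nearest profiles of each member, without predicted genes or pseudogenes and with at least 5 CPM in 2 libraries. The robust fit with TMM scaling before the filter was adopted after the data were seen, to match an earlier analysis, with the other forms as added alternatives.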

Additional observations from a re-analysis of the deposited data

Results flagged for a closer look

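In 3 members the diet ratio had opposite signs in the 2 fractions, with 1 library behind each value, so the differences were not tested. For Creb3l1 the log2 ratio of HFD over control in GFP-high cells exceeded that in GFP-low cells by 0.997. For Creb3l4 the same difference was 0.936. For Creb3 it was 0.200, and the counting intervals of both its ratios include equality. In GFP-high cells the counting intervals of the Creb3l1 and Creb3l4 ratios include equality too, so their signs there are not resolved at this depth.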

How the results depend on the processing

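No paired analysis was possible because the labels give no replicate numbers and each diet and fraction has 1 library; leaving out a library would leave no residual degree of freedom. Of the values that answer a comparison, 118 alternative values kept their direction and side of the threshold or moved little, 15 moved, 6 passed the threshold and 1 lost it. Every member's fitted fraction ratio stayed negative under every setting run, between -0.99 for Creb3 and -3.36 for Creb3l3. Creb3l1 passed the threshold with DESeq2 size factors (log2 -1.63, edgeR adjusted p = 0.00732), no filter (-1.64, adjusted p = 7.13e-06), no diet block (-1.71, adjusted p = 0.0227) and the DESeq2 Wald test (-1.63, adjusted p = 1.47e-10), and, in forms added after seeing the data, with TMM after the filter (-1.63, adjusted p = 0.0137) and empirical Bayes without robust (-1.64, adjusted p = 5.82e-07). Its adjusted p over all settings ran from 1.47e-10 to 0.0780. Creb3l3 lost its call without the diet block (-2.80, edgeR adjusted p = 0.293). Calls between fractions numbered 5090, against 2948 without the diet block and 2390 with DESeq2. With library totals they split into 3633 higher and 1903 lower, against 2350 and 2740, and the median of all genes shifted by 0.19. Calls between diets numbered 691, against 1158 with no filter, 189 with DESeq2 and 0 without the fraction block in edgeR (149 at an unadjusted p under 0.05). Genes at least 2-fold higher under HFD in GFP-high cells numbered 83, against 412 with no level minimum and 22 at 20 CPM, and 2-fold lower 155, against 530 and 74. In GFP-low cells these were 163 higher, against 586 and 75, and 271 lower, against 807 and 138. With the longest transcript as length, Creb3l3 took rank 2 and Creb3l4 rank 3 in HFD GFP-high cells. Ratios near 0 changed sign for the fraction contrast of Srebf1 (0.12), Hnf4a (0.19) and Ppp1r15a (0.052) under library totals and of Hnf4a (0.00087) with TMM after the filter. They did so for the diet contrast of Dnajb11 (-0.046) and Lgr5 (0.0031) without the fraction block and of Lgr5 (0.0075) under library totals. The diet log2 ratio of Tph1, not called under any setting, was -0.53 ± 0.70 (SE) in edgeR and 0.66 with DESeq2. The cause of these changes was not tested. Depth limits Creb3l3 in control GFP-high cells, with 15 counts, and no value has a replicate of its own group.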
